A study of Mus musculus with 56 samples.

Results

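The transcription factor NF-κB is represented here by 10 genes, chosen by symbol: the 5 subunits Nfkb1, Nfkb2, Rel, Rela and Relb, the classical inhibitors Nfkbia and Nfkbie, the nuclear IκB proteins Nfkbiz and Bcl3, and the feedback enzyme gene Tnfaip3. They are 10 of 30199 gene names on the array, and their values were taken in all 56 blood samples. The samples came from C57BL/6 mice, aged about 10 to 12 weeks on arrival. The irradiated mice were injected in the tail vein with 200 kBq of 90Sr, a beta emitter that deposits in bone and irradiates from within, given as the chloride with a small share of another strontium isotope as tracer, and the control mice received the saline vehicle. Blood was collected on day 4, 7, 9, 25 or 30, counted from injection, from 4 control and 4 irradiated mice at day 4 and from 6 and 6 at each later day, with separate mice at each day and 1 array per mouse. The question the arrays address is how gene expression in blood changes while the internal dose accumulates. The sample is whole blood RNA with globin transcripts reduced before labeling, so a lower level can reflect fewer cells of a type or less RNA per cell, and these cannot be told apart here.

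NF-κB is a family of dimers built from RELA, RELB, c-REL and the p50 and p52 proteins that are made from the Nfkb1 and Nfkb2 products. In resting cells IκB proteins such as IκBα (Nfkbia) and IκBε (Nfkbie) hold the dimers in the cytoplasm. In the classical pathway, signals from antigen, cytokine and pattern-recognition receptors, and from DNA damage, activate the IKK complex, which marks these inhibitors for destruction. In the alternative pathway, receptors of the TNF family such as the BAFF receptor stabilize the kinase NIK, which drives processing of the Nfkb2 product and frees RELB dimers. BCL3 and IκBζ (Nfkbiz) act in the nucleus with p50 and p52 dimers, and A20 (Tnfaip3) edits ubiquitin chains to end the signal. Many of these genes are themselves NF-κB targets, and in blood the family is known for its part in the survival and activation of lymphocytes and the responses of myeloid cells.

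The promoter sequences of 4 members are shown because feedback through these sites is the best known regulatory link inside the family. RefSeq promoter sequences on GRCm38.p6 were at hand for 7 of the 10 members (Bcl3, Nfkb2, Nfkbia, Nfkbie, Rel, Rela and Tnfaip3), 10 promoters in all. In the 250 bases before each start, a match to the κB consensus on either strand was found in 7 of the 10 promoters and in 5 of the 7 members. The same search found a match in 1281 of 32851 mouse promoters of that length, or 3.9%. A match is a description of the letters and no evidence of binding. In the lines that follow, written 5′ to 3′ along the gene, capitals mark the matches, and overlapping matches run together.
Nfkb2, chr19:46304487-46304736, + strand: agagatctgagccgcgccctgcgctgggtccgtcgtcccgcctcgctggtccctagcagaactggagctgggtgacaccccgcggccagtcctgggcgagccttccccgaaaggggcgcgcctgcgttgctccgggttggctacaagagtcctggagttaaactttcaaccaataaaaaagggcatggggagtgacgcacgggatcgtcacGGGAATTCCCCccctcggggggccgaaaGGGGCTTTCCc
Nfkbia, chr12:55492648-55492897, - strand: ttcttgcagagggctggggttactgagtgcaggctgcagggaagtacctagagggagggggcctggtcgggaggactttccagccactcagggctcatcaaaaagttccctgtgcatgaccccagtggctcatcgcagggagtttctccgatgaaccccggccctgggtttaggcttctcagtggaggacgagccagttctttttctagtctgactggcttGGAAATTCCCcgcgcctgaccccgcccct
Nfkbie, chr17:45555450-45555699, + strand: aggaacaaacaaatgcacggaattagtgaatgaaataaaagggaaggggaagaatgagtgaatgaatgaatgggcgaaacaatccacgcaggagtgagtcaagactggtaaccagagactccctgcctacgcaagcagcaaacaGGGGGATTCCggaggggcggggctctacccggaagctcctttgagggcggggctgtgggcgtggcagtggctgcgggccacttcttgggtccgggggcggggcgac
Tnfaip3, chr10:19015411-19015660, - strand: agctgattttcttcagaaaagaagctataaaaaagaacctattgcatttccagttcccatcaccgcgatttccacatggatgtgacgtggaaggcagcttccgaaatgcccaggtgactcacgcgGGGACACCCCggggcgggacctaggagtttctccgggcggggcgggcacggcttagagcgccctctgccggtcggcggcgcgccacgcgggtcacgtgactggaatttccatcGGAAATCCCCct
The Nfkb2 matches began 39, 38 and 11 bases before the start, the first pair overlapping, and those of Tnfaip3 began 125 and 12 bases before it. Nfkbia and Nfkbie had 1 match each, beginning 29 and 106 bases before the start. The Rela and Bcl3 promoters, and a second Tnfaip3 promoter, held no match in this window.

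Levels below are log2 signals relative to the median of the 43020 non-control spots of the same array. Of the arrays, those of control mice had 17809 to 24698 spots well above background and those of irradiated mice 14389 to 22524. A gene was called at a day when limma, the linear-model test fitted across all genes of that day, gave an unadjusted p under 0.001 with at least a 2-fold change. Adjusted p are Benjamini-Hochberg values over all 14583 or 14584 genes tested. Each array is a separate mouse, so the spread is that between mice of 1 study. Scaling matters for these values: with arrays scaled to their 75th percentile in place of the median, the median of all detected genes moved up by 0.48, 0.35, 0.39, 0.48 and 0.19 at the 5 days in order, and the members moved up by the same amounts.

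**Figure D1:**
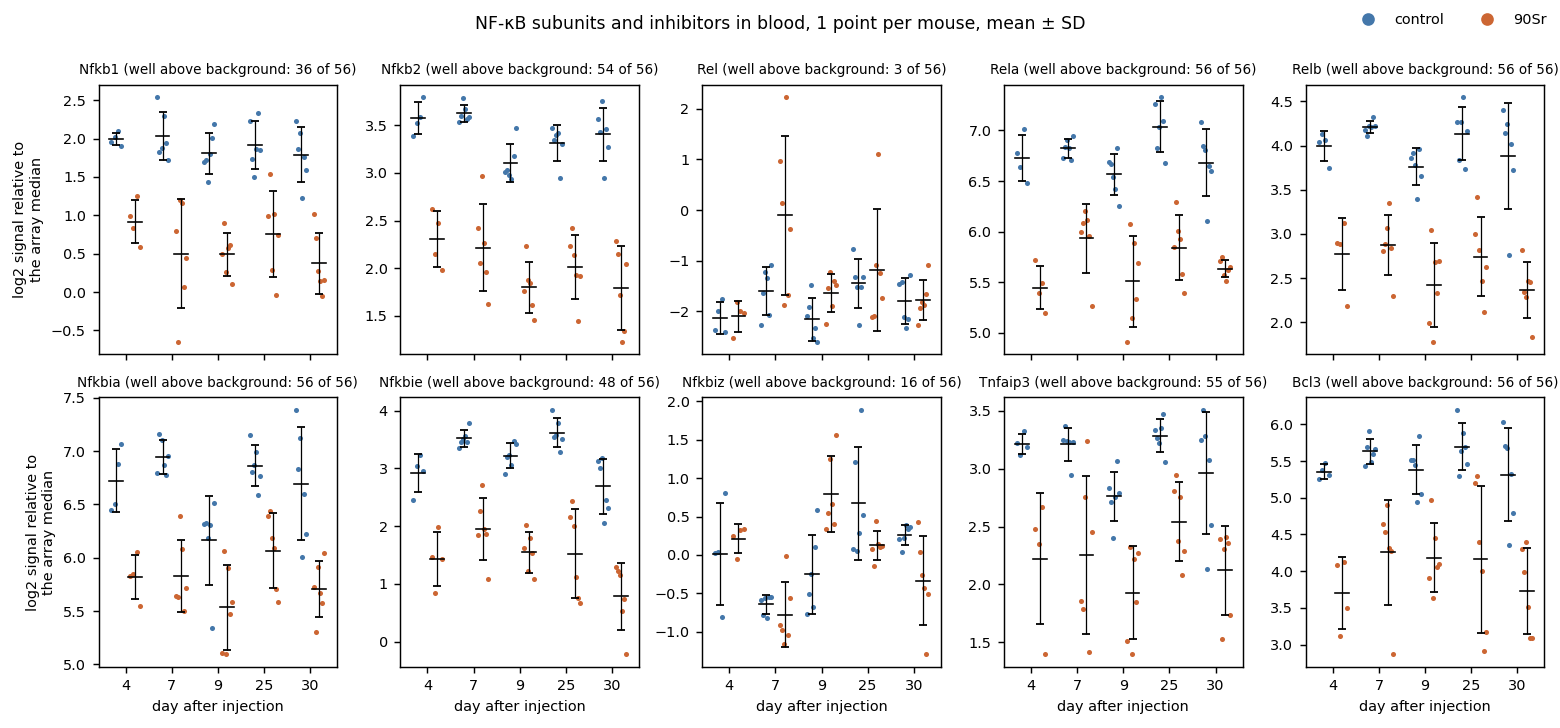
Log2 signal relative to the array median (vertical axis, a separate range for each gene) by day after injection for the 10 members, 1 point per mouse, with bars for the mean and SD of 4 mice at day 4 and 6 mice later. For 8 members the mean of the irradiated mice (orange) lies below that of the control mice (blue) at every day. Mice of the groups overlap at some days, and only 2 of 6 irradiated mice lie below all controls for Nfkbia at day 9 and Tnfaip3 at day 30. The points of Rel and Nfkbiz, near background, overlap at every day.

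Of the NF-κB genes, 8 were lower in the blood of irradiated mice at every day from 4 to 30, while Nfkbiz, which gave a weak signal, read lower at days 7, 25 and 30 and higher at days 4 and 9. At each day 6 of the 9 members tested fell and none rose. Nfkb1, Nfkb2, Relb, Nfkbie and Bcl3 fell at all 5 days, Rela at 4 days and Nfkbia at 1 day, and Tnfaip3 was lower at each day without reaching 2-fold. With median scaling and 1 probe per gene, the mean change over the 5 days was greatest for Nfkbie (3.35-fold lower). Bcl3 (2.77-fold), Nfkb2 (2.60-fold), Relb (2.57-fold), Rela (2.13-fold), Nfkbia (1.85-fold) and Tnfaip3 (1.83-fold) followed in order. Nfkb1 has no place in this order, because its day 9 fold is only a bound, at least 1.99-fold. Its day 9 call, counted here, therefore rests on signal near background. With a filter for signal well above background, 5 members were called at day 9 and 4 at all 5 days. Rel did not pass the detection filter, and Nfkbiz passed it with a weak signal. Among all genes, 23.1%, 16.1%, 17.9%, 26.5% and 21.3% were called lower in order of day, against 6 of 9 members at each. Genes called higher were 2.8%, 3.47%, 5.44%, 7.49% and 19.7% of all genes at the same days, against 0 of 9 members by limma, where 1 member, Nfkbiz at day 9, was higher with an unadjusted p under 0.05 (0.00197). Lower calls at all 5 days were made for 8.4% of genes and for 5 of the 9 members. The members' median change was -1.22, -1.33, -1.20, -1.19 and -1.42 in order of day, beside 0.04, 0.07, -0.17, 0.11 and 0.01 for all genes tested.

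Setting aside Nfkbiz, the other 8 members gave 40 comparisons over the 5 days, and all 40 were lower in irradiated mice, with changes from -2.10 to -0.63 and adjusted p up to 0.0455 (limma). All 40 stayed lower under 75th percentile, quantile, and normexp with quantile scaling, but the calls did not: 30 were called with median scaling (29 without the filter on variation), and without that filter 11 with the 75th percentile, 20 with quantile scaling and 4 with normexp and quantile scaling. With normexp, a background model, and no quantile step, 6 of the 8 members passed the filters, 29 of their 30 changes were lower, Nfkbia at day 25 turned to 0.26, and 0 were called by limma, with an unadjusted p under 0.05 for 14. The arrays came on slides of 4, and from day 7 on 1 slide of each day held 2 control and 2 irradiated arrays. Within that slide all 8 members were lower at each day, with median changes of -1.55, -1.17, -0.77 and -0.90 in order. With slide as a fixed block, which rests on those 4 arrays, 4, 3, 0 and 0 members were called at days 7, 9, 25 and 30, and at days 25 and 30 the limma adjusted p of the 8 members lay between 0.0964 and 0.647 and the unadjusted p was under 0.05 for 4 and 5 of them. At day 4 slide and group cannot be told apart. At days 7 and 30, 4 of the irradiated arrays were scanned on another day than the rest, and the part of the scan day was not tested.

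**Figure D2:**
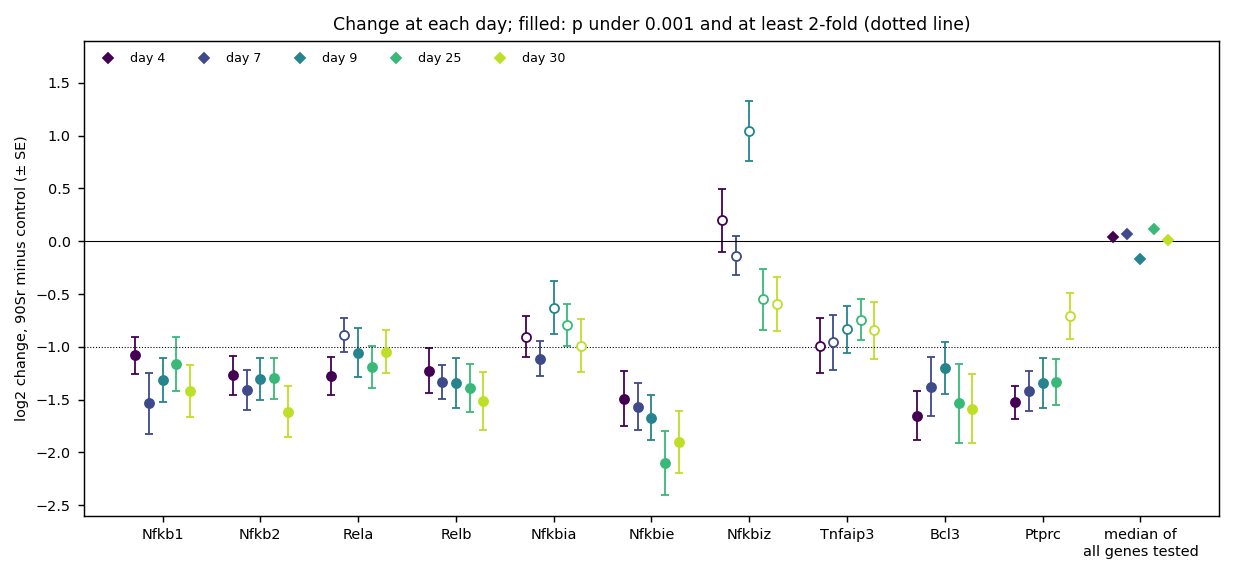
Log2 change, irradiated minus control, with its SE from limma (vertical axis) for 9 members and Ptprc at each day, filled where the gene was called, and diamonds for the median of all genes tested. The changes of Nfkbie run from -1.49 to -2.10, those of Tnfaip3 from -0.74 to -0.99, and the medians of all genes stay between -0.17 and 0.11.

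Rela, the subunit with the main activation domain of the classical p50 dimer, was bright on every array. At day 4 the control mice read 6.77, 6.64, 7.02 and 6.48, and the irradiated mice 5.72, 5.39, 5.49 and 5.20. At day 7 the controls ran from 6.70 to 6.94 with a median of 6.83, and the irradiated mice from 5.26 to 6.20 with a median of 6.04. Every irradiated mouse lay below every control mouse of its day at all 5 days. Over the members the groups stayed apart in this way for 8, 7, 6, 7 and 4 of 9 at the 5 days, as they did for 35.9%, 27.6%, 23.3%, 30.5% and 16.9% of all genes. Rela fell (log2 change -1.28 ± 0.18, SE, n = 4 and 4) at day 4, or 2.43-fold, with a limma adjusted p of 0.000331. At day 7 its change was -0.89 ± 0.16, or 1.85-fold lower, short of the 2-fold threshold, with a limma adjusted p of 0.000462. It then fell (log2 change -1.06, -1.19 and -1.04) at days 9, 25 and 30. Without irradiated replicate 1 or 3 at day 9 the change was -0.94 or -0.98 and was not called, nor was that at day 30 without control replicate 1 (-0.96).

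Nfkb1, which encodes p105 and its product p50, had a weaker signal, well above background on 36 of 56 arrays. Its probe lies at chr3:135254550-135254609 on mm9, the build of the array files. All controls were well above background at each day, and they ran from 1.43 to 2.19 at day 9, with a median of 1.76. The irradiated mice of day 9 ran from 0.11 to 0.91, with a median of 0.53, and none was well above background. The fold at that day is therefore a bound, at least 1.99-fold lower in irradiated mice (limma adjusted p 0.000194). At the other days Nfkb1 fell (log2 change -1.08, -1.53, -1.16 and -1.42, in order). At those days 3 of 4, 2 of 6, 2 of 6 and 1 of 6 irradiated mice were well above background, so these changes also rest partly on signal near background. Over all 5 days 27 of 28 irradiated mice lay below all controls of their day. The day 4 change was -0.97 and not called without irradiated replicate 4, and the day 25 change lost its call without control replicate 1 or 5 or irradiated replicate 3 (-1.102, -1.08 and -1.07). A second probe, at chr3:135247621-135247680 and well above background on 34 arrays, gave changes of -2.37, -1.84, -2.06, -2.23 and -1.31, of which that at day 30 was not called.

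Nfkb2 encodes p100 and its product p52, the partner of RELB in the alternative pathway. Its control mice ran from 2.94 to 3.79 over the whole study, and its irradiated mice from 1.22 to 2.97. At day 30 the controls had a lowest, median and highest level of 2.94, 3.45 and 3.76, and the irradiated mice of 1.22, 1.88 and 2.29. The groups did not overlap at any day. Nfkb2 fell with log2 changes of -1.27 ± 0.19, -1.41 ± 0.19, -1.31 ± 0.20, -1.30 ± 0.20 and -1.62 ± 0.24 (SE), that is 2.41- to 3.06-fold, with limma adjusted p between 9.46e-05 and 0.0004. No array left out changed any of these 5 calls.

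Relb, whose product pairs with p52 or p50, was measured by 3 probes that did not read alike. The probe with the highest mean, which stands for the gene, lies at chr7:20191722-20191781 on mm9. Its controls at day 7 ran from 4.11 to 4.32 with a median of 4.22, and its irradiated mice from 2.30 to 3.35 with a median of 2.86. It fell (log2 change -1.22, -1.33, -1.34, -1.39 and -1.52) at the 5 days, with limma adjusted p from 0.000142 to 0.00102, and 27 of 28 irradiated mice lay below all controls of their day. The day 4 change was -1.18 and not called without control replicate 2. A second probe that overlaps it, at chr7:20191773-20191832, gave -1.03, -1.05, -1.13, -0.92 and -1.05, called at each day but day 25.

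The remaining Relb probe, designed on another transcript of the locus and lying toward its 5′ end at chr7:20203058-20203117, read higher in irradiated mice. Its irradiated mice read 3.58 to 3.82 at day 4, above all 4 controls at 2.84 to 3.29. At day 30 the irradiated mice ran from 3.19 to 4.87, above the controls at 2.59 to 3.12. Its changes were 0.65, 0.43, 0.07, 0.73 and 1.24, and by limma the probe rose at day 30 alone (adjusted p 0.000695). It was well above background on all 56 arrays, as were the other Relb probes. Across the 56 arrays it correlated at r = -0.70 with the probe that stands for the gene, against r = 0.89 between the 2 overlapping probes. With the mean of the 3 probes in place of the brightest, the change of Relb lay between -0.80 and -0.44 and was called at none of the 5 days. The first 30 of the 60 bases of each probe are printed because these readings separate by probe.
Relb, probe that stands for the gene: gaagatggggagcactccggttctctttga
Relb, overlapping probe: atcagtcttccagcttcctcatcctgaatc
Relb, upstream probe: ggcacaggtaccagaccccgacctttgacc

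**Figure D3:**
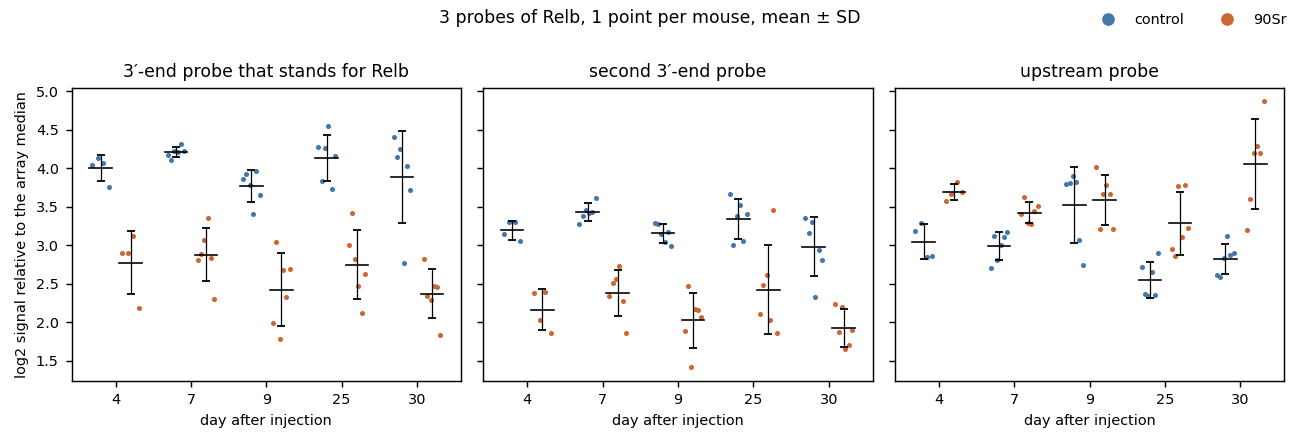
Log2 signal relative to the array median for the 3 Relb probes by day, 1 point per mouse, with mean and SD. The 2 overlapping probes are lower in irradiated mice (orange), while the upstream probe reads 3.19 to 4.87 in irradiated mice and 2.59 to 3.12 in controls (blue) at day 30.

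Rel, which encodes c-REL, a subunit prominent in lymphocytes, could not be measured. Its single probe was well above background on 3 of 56 arrays, none of them from a control mouse, and no fold is given. The 3 arrays were 2 irradiated mice of day 7, and 1 of day 25 that read 1.11 where the other 5 of its group ran from -2.11 to -1.10.

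Nfkbie, the gene of IκBε, had the largest mean change among the members ordered above, with median scaling. With normexp and quantile scaling its changes ran from -0.65 to -0.38, and those of Rela from -1.19 to -0.71. At day 4 the controls read 2.45, 3.04, 3.23 and 2.96, and the irradiated mice 1.46, 0.85, 1.98 and 1.42. At day 25 the controls had a lowest, median and highest level of 3.29, 3.56 and 4.02, and the irradiated mice of 0.66, 1.56 and 2.43. The groups stayed apart at all 5 days. Nfkbie fell with log2 changes of -1.49 ± 0.26, -1.57 ± 0.22, -1.67 ± 0.21, -2.10 ± 0.30 and -1.90 ± 0.29 (SE), or 2.81-, 2.96-, 3.19-, 4.28- and 3.74-fold, with limma adjusted p from 5.53e-05 to 0.000939. The change did not differ between days by the F test for all 5 effects (adjusted p 0.678), so the order of the days is not resolved. It was called whichever array was left out. Irradiated mice were well above background on 4 of 6 arrays at day 9 and 3 of 6 at days 25 and 30.

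Nfkbia, the gene of IκBα, is induced by NF-κB itself and rapidly resynthesized after the protein is destroyed. Its level was high on all 56 arrays. At day 7 the controls ran from 6.77 to 7.16 with a median of 6.91, and the irradiated mice from 5.50 to 6.39 with a median of 5.68, and it fell (log2 change -1.11 ± 0.17), or 2.16-fold (limma adjusted p 0.000194). At the other days the change was -0.91, -0.63, -0.79 and -0.99, with limma adjusted p of 0.00281, 0.0455, 0.00264 and 0.00277, and was not called. At day 30 it was called without control replicate 4 (-1.13) or control replicate 6 (-1.08). At day 9 the groups overlapped most, with 2 of 6 irradiated mice below all controls, and control replicate 5 read 5.34 where the other controls ran from 6.19 to 6.51.

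Tnfaip3, the gene of A20, was lower at each day and called at none. Its controls ran from 2.94 to 3.37 at day 7, and its irradiated mice from 1.42 to 3.24, with replicate 4 as the highest. At day 25 the controls ran from 3.06 to 3.48 and the irradiated mice from 2.08 to 2.95, with no overlap. At day 30 only 2 of 6 irradiated mice lay below all controls. The change was -0.99, -0.96, -0.83, -0.74 and -0.84 in order of day, with limma adjusted p between 0.00333 and 0.0111. Without irradiated replicate 4 the day 7 change was -1.16 and was called, as was that of day 30 without control replicate 4 (-1.01). With arrays scaled to their 75th percentile its change lay between -0.65 and -0.26.

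Bcl3, a nuclear IκB protein that can act as a coactivator with p50 or p52, was well above background on all arrays. At day 4 the controls read 5.25, 5.38, 5.48 and 5.31, and the irradiated mice 4.09, 3.11, 4.12 and 3.50. At day 25 the controls ran from 5.29 to 6.20 and the irradiated mice from 2.92 to 5.29, the widest spread among the 8 measured members, with an SD of 0.998. Bcl3 fell (log2 change -1.65, -1.38, -1.20, -1.53 and -1.59), or 3.14-, 2.60-, 2.30-, 2.90- and 3.002-fold, with limma adjusted p from 0.000353 to 0.00226. The call at day 25 rested on the full group: with any 1 of 10 of its 12 arrays left out the change stayed between -1.61 and -1.29 and was not called. At day 7 irradiated replicate 6 read 2.87 where the others of its group ran from 4.27 to 4.90.

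Nfkbiz, the gene of IκBζ, which is induced in myeloid cells and drives secondary response genes, did not follow the others. It was well above background on 16 of 56 arrays, so its values lie close to the detection limit. Its change was 0.20, -0.14, 1.05, -0.55 and -0.60 in order of day, and it was called at none. At day 9 the controls ran from -0.77 to 0.58 with a median of -0.38, and the irradiated mice from 0.34 to 1.56 with a median of 0.60. Here 3 of 6 irradiated mice exceeded all controls (limma adjusted p 0.00628), and without control replicate 6 the change was 1.21 and was called. At day 9 the probe was well above background in 1 of 6 control and 1 of 6 irradiated mice. On the slide that held 2 control and 2 irradiated arrays of that day, the change was 0.10. With 75th percentile scaling the day 9 change was 1.44 and was called, and the sign at day 7 turned to 0.21. The sign at day 4 turned to -0.08 without control replicate 3. At day 7 no mouse of either group, and at day 25 no irradiated mouse, was well above background.

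A day-dependent change was found for 1 of the 9 members, Nfkbiz (limma F test in 1 fit of the 10 groups, adjusted p 0.00354), against 22.5% of all genes. With slide as a random block in that fit its adjusted p was 0.0787. The other 8 members had adjusted p from 0.678 to 0.969 in this test, which does not show that their changes were equal. The control mice differed between days for Nfkbia, Nfkbie and Nfkbiz, 3 of 9 members against 48.2% of all genes. Control Nfkbie was lowest at day 30, at 2.69 ± 0.47 (SD, n = 6), and highest at day 25, at 3.62 ± 0.25. Control Nfkbia ran from 6.16 ± 0.42 at day 9 to 6.94 ± 0.16 at day 7 (limma F test, adjusted p 0.0104 for Nfkbia and 0.0114 for Nfkbie). With slide as a random block these were 0.0682 and 0.0609, and only Nfkbiz of the 9 members kept an adjusted p under 0.05 (0.00904, limma). Each comparison above uses the controls of its own day.

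Across the 56 arrays the 8 measured members moved together, with Pearson correlations of 0.74 to 0.94 over their 28 pairs and a median of 0.85. The points share the group difference and each array its scaling. After the mean of each of the 10 groups was removed, the correlations ran from 0.30 to 0.85 with a median of 0.52. The closest pairs over all arrays were Rela with Relb (0.94) and Nfkbie with Bcl3 (0.93), and the loosest was Nfkbie with Tnfaip3 (0.74). Nfkbie and Bcl3 were also the closest within groups (0.85), and Nfkb2 and Tnfaip3 the loosest (0.30).

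The levels of each member over the 56 arrays were set beside those of the 18802 genes past the detection filter, and the 2 closest genes are given for the measured members. Rela was most like Coasy, a coenzyme A synthase (r = 0.99), and Myo1g, a myosin of hematopoietic cells (0.98). Nfkb2 was most like Ptpn6, the phosphatase SHP-1 (0.98), and Grap, an adaptor of lymphocyte receptors (0.97). Nfkbie was most like Coro1a, the leukocyte coronin (0.96), and Nop2 (0.96). Bcl3 was most like Mcl1, a survival factor of the BCL2 family (0.97), and Snx20 (0.96). Relb was most like Hmgn1 (0.97) and a transcript listed as NAP112102-1 (0.97), and Nfkb1 most like Bahd1 and Mrps2 (both 0.92). Nfkbia was most like Ppp2r2d (0.91) and the immunoproteasome gene Psmb9 (0.90), and Tnfaip3 most like Stat5a and Dpysl2 (both 0.89). The best r of the weak probes was 0.68 for Rel, with Piwil2, and 0.66 for Nfkbiz, with Sh2d7. These correlations describe arrays that share the group difference and their scaling.

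Ptprc, the pan-leukocyte gene of CD45, fell too at days 4 to 25 (log2 change -1.53, -1.42, -1.34 and -1.33), while its change at day 30 was -0.70 and was not called. The difference between a member and Ptprc on the same array does not depend on a scaling that adds a constant to the array. It was compared by an exact two-sided permutation test in 50 comparisons, where the smallest p the design allows is 0.0286 at day 4 and 0.00216 at later days. Of the 50, 12 had an adjusted p under 0.05, 3 of them for Rel and 2 for Nfkbiz, whose probes were near background. Relative to Ptprc, Nfkb2 was lower at day 30 (-0.91, adjusted p 0.0361, exact permutation, 6 of 6 mice), and Nfkbie was lower at day 25 (-0.77, adjusted p 0.0451) and at day 30 (-1.20, adjusted p 0.0361). Rela was higher relative to Ptprc at day 7 by 0.53 (adjusted p 0.0309, exact permutation), Nfkbia at day 9 by 0.71 (0.0394) and at day 25 by 0.54 (0.0309), and Tnfaip3 at day 9 by 0.51 (0.0394), in 6 of 6 mice each. The day 25 result of Nfkbie was lost without any 1 of 8 arrays, the day 9 result of Nfkbia without any 1 of 5, and that of Tnfaip3 without any 1 of 3. With quantile scaling, which changes the distances between genes of an array, 0 of the 50 exact permutation tests passed.

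Nfkb1, Relb and Bcl3 did not pass relative to Ptprc at any day, with changes of the ratio from -0.71 to 0.44, -0.81 to 0.30 and -0.88 to 0.14. Differences of that size were not resolved by these tests. At day 4 the smallest p that 4 and 4 mice allow, 0.0286, became an adjusted p of 0.0840 (exact permutation), so no day 4 comparison passed. There, of the 8 measured members, Nfkb1 was higher relative to Ptprc by 0.44 and Nfkbia by 0.62. In both, every irradiated mouse lay above every control. The result depends on the gene used: relative to Cd3e, of the T cell receptor complex, 35 of 50 comparisons passed, and relative to Csf3r, the G-CSF receptor of neutrophils, 37 of 50. Relative to Csf3r the 8 measured members were lower at every day, with mean differences of -1.67 for Nfkbie, -1.39 for Bcl3, -1.30 for Nfkb2 and -0.80 for Tnfaip3. Ratios to both genes lay close to the members' own changes: the mean change of Nfkbie was -1.75, and -1.72 relative to Cd3e. The median of the mean changes of all detected markers was -0.28 for T cells and -0.53 for neutrophils. Neither reference gene was shown to stand for its cell type, and both were chosen after values were seen.

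**Figure D4:**
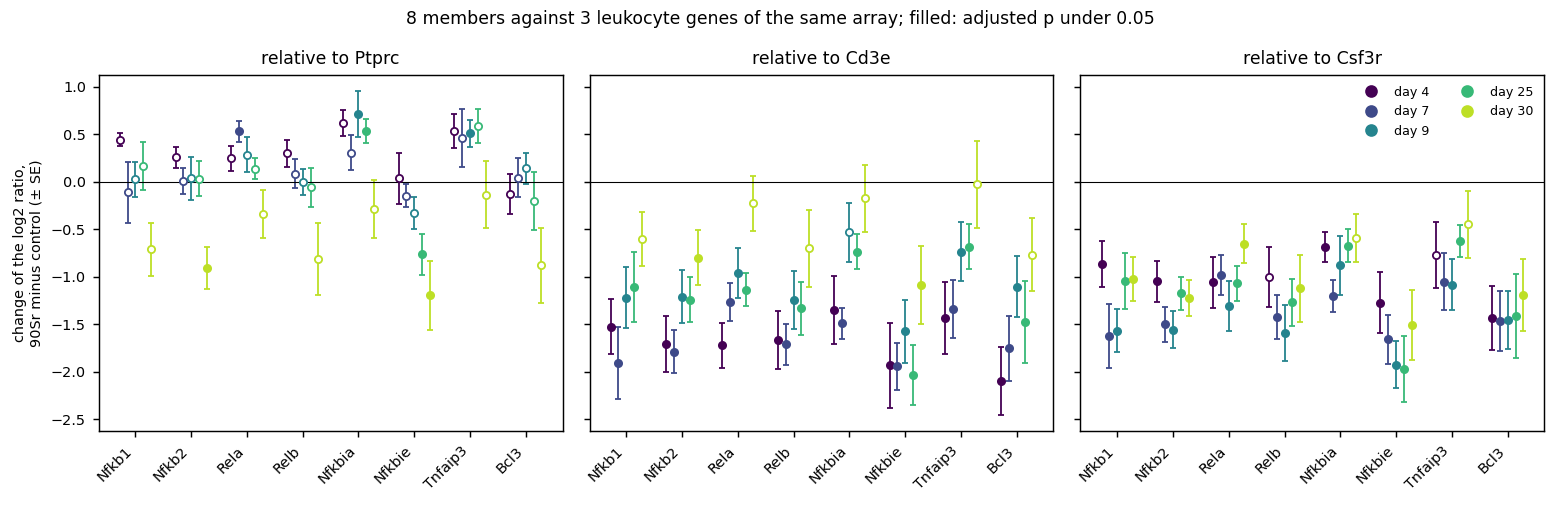
Change of the log2 ratio of 8 members to Ptprc, Cd3e or Csf3r on the same array, irradiated minus control, with SE (vertical axis), by member and day, filled where the adjusted p was under 0.05. Up to day 25 the ratios to Ptprc lie above 0 for Nfkb2, Rela, Nfkbia and Tnfaip3. For the other members they lie on both sides of 0. At day 30 all 8 lie below 0, while the ratios to Csf3r are below 0 throughout.

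Pairs of members were compared in the same way in 40 tests, for 8 pairs fixed by their roles. Nfkb2 and Relb are the 2 subunits of the alternative pathway. On the Relb probe that stands for the gene, their changes differed by -0.10 to 0.09 over the 5 days. The SE ran from 0.10 to 0.27, with no p under 0.398 (exact permutation). This closeness holds for that probe alone. Relative to it, the change of the overlapping Relb probe was higher by 0.19 to 0.48, and that of the upstream probe by 1.41 to 2.76. Tnfaip3 and Nfkbia, both feedback genes, differed by -0.20 to 0.15 with SE from 0.13 to 0.24. Nfkbia was higher relative to Rela at day 25 by 0.40 ± 0.11 (SE; adjusted p 0.0124, exact permutation, 6 of 6 mice) and did not pass at the other days. Nfkb1 relative to Rela ran from -0.65 to 0.20, and Bcl3 relative to Nfkb1 from -0.57 to 0.16, with no call. The -0.57 was at day 4, with every irradiated mouse below every control. There the smallest possible p, 0.0286, became an adjusted 0.0714 (exact permutation), so no day 4 test of the pairs passed. Of the 11 tests that passed, 7 involve Rel and 3 Nfkbiz, and rest on probes near background: Nfkbiz was higher relative to Nfkb1 by 1.40, 2.36 and 0.82 at days 7, 9 and 30. With quantile scaling 7 of the 40 passed, and with the authors' processed values 5.

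The other genes of the pathway were taken in 5 lists written from general knowledge, 151 genes in all, of which 98 were tested. Of these, 50, 33, 38, 49 and 38 were called lower at the 5 days in order, or 51.0%, 33.7%, 38.8%, 50% and 38.8%, and 0, 1, 2, 2 and 10 were called higher. Of all genes tested, 23.1%, 16.1%, 17.9%, 26.5% and 21.3% were called lower, and 19.7% higher at day 30. Genes that are listed below only for falling at all 5 days were chosen after their values were seen. The median change of the 98 was -1.08, -0.85, -0.89, -1.10 and -0.94, beside 0.04, 0.07, -0.17, 0.11 and 0.01 for all genes tested. With 75th percentile scaling the numbers called in either direction fell to 26, 20, 22 and 28 at days 4 to 25, and with slide as a fixed block to 10, 0 and 5 at days 9, 25 and 30.

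**Figure D5:**
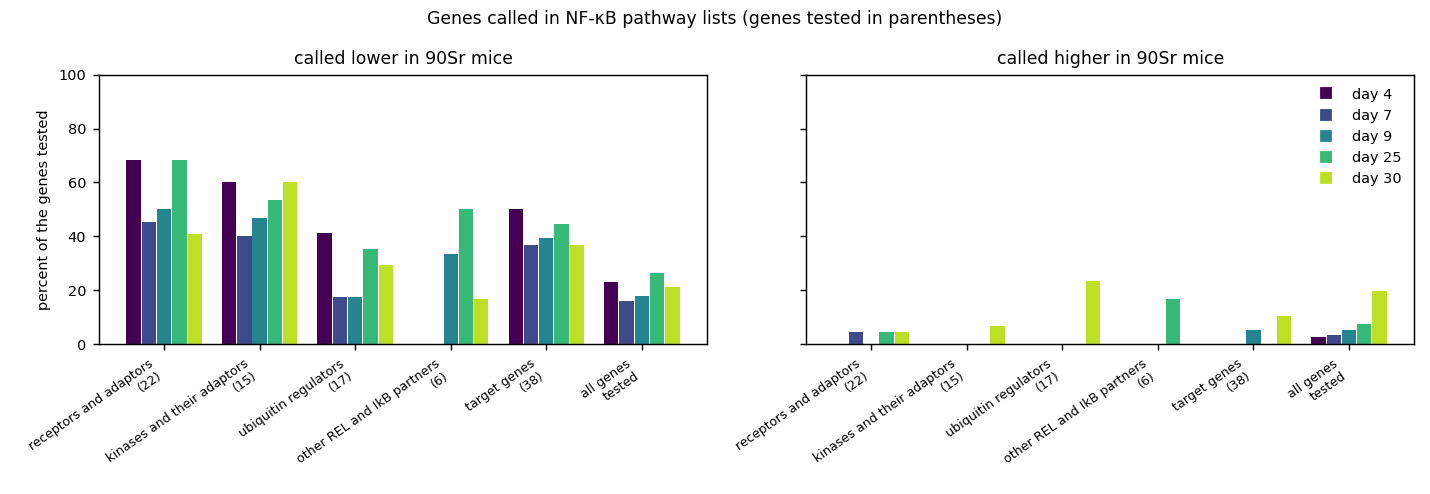
Percent of the genes tested that were called lower (left) or higher (right) in irradiated mice, by pathway list and day, beside all genes tested. Among receptors and adaptors 15 of 22 genes were called lower at days 4 and 25, where 23.1% and 26.5% of all genes were, and among ubiquitin regulators 4 of 17 were called higher at day 30, where 19.7% of all genes were.

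Among receptors and adaptors, 15, 10, 11, 15 and 9 of 22 genes fell at the 5 days in order, against 23.1%, 16.1%, 17.9%, 26.5% and 21.3% of all genes, and Tnfrsf13b, Tnfrsf13c, Tradd, Traf2 and Traf5 fell at all 5. Tnfrsf13c, the BAFF receptor of B cells that feeds the alternative pathway, fell (log2 change -2.36, -1.87, -2.15, -2.67 and -2.94). Tnfrsf13b, the receptor TACI, fell (log2 change -2.47, -1.57, -2.22, -2.61 and -2.58). At the other end, Il1rap, the shared chain of the IL-1 receptor family, rose at days 7, 25 and 30, by 1.04, 1.24 and 2.56, and Cd14, a coreceptor for endotoxin, gave 0.75, 0.81, 0.67, 1.04 and 0.23 with no call.

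Among kinases and their adaptors, 6 to 9 of 15 genes fell at each day, against 16.1% to 26.5% of all genes, and Ikbkb, Malt1, Map3k1, Map3k14 and Prkcb were among those that fell at all 5. Malt1, the protease that relays antigen receptor signals, fell (log2 change -1.85, -1.52, -1.72, -1.94 and -1.74). Map3k14, which encodes NIK, fell (log2 change -1.72, -1.26, -1.35, -1.73 and -1.85). Ikbkg, the gene of the IKK scaffold NEMO, rose at day 30 by 1.20 (limma adjusted p 0.00131), and Map3k7, the gene of TAK1, gave 0.06, 0.45, -0.15, 0.54 and 0.99 with no call. Over all 23 genes of this list that were detected, the median of the mean changes was -0.40, or -0.02 with 75th percentile scaling.

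Among ubiquitin regulators 3 to 7 of 17 fell at each day, against 16.1% to 26.5% of all genes, and over the 25 detected the median of the mean changes was -0.29, or 0.08 with 75th percentile scaling. Birc3, a ubiquitin ligase and itself an NF-κB target, fell at days 4, 7, 25 and 30 (log2 change -1.31, -1.85, -1.47 and -1.22), with -1.11 at day 9. Its probe was well above background on 40 of 56 arrays. Pdlim2, a ligase for RELA, fell at all 5 days (log2 change -1.10, -1.03, -1.32, -1.48 and -1.53). At day 30 Rnf11, a partner of A20, rose by 1.07 and Skp1a, a subunit of the ligase that acts on phosphorylated IκB, by 1.497, and 4 of 17 genes rose, against 19.7% of all genes. Of 6 other REL and IκB partners, 0 to 3 were called lower at a day, against 16.1% to 26.5% of all genes. Nkap, one of these partners and well above background on 42 of 56 arrays, fell (log2 change -1.22 and -1.64) at days 9 and 25. Rps3, a ribosomal protein that joins RELA complexes, fell at day 25 (log2 change -1.01), and Ankrd42, well above background on 10 of 56 arrays, rose at day 25 by 1.11.

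Of the NF-κB target genes 14 to 19 of 38 fell at each day, against 16.1% to 26.5% of all genes, and Cd83, Cd86, Cxcr5, Icam2, Irf4, Irf8, Ltb and Psmb9 fell at all 5. Irf4, a lymphocyte transcription factor, fell (log2 change -2.48, -1.81, -2.09, -2.30 and -3.32), and Cxcr5, the follicle-homing receptor of B cells, likewise (-2.14, -1.84, -2.03, -2.14 and -2.90). Csf1, a macrophage growth factor, rose at day 30 by 2.16 (limma adjusted p 0.000201), and Bcl2l1, the survival gene of BCL-XL and abundant in erythroid cells, rose at days 9 and 30 by 1.05 and 1.17. Over the 44 target genes past the detection filter the mean change over days was below 0 in 35, with a median of -0.83, and in 30, with a median of -0.45, under 75th percentile scaling.

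Markers of blood cell types moved with these results, and their part in them was not tested. All 12 B cell markers were detected, and their summed level on the log2 scale ran from 9.73 to 10.9 in controls and from 7.37 to 9.60 in irradiated mice. B cell markers fell in 10, 10, 9, 10 and 10 of 11 genes tested at the 5 days, against 23.1%, 16.1%, 17.9%, 26.5% and 21.3% of all genes. Their median changes ran from -2.41 to -1.71. Of 9 monocyte markers tested, 3 to 6 fell at a day, against 16.1% to 26.5% of all genes, with medians from -1.25 to -0.92. The summed level of monocyte markers ran from 7.39 to 9.18 in controls and from 6.84 to 8.37 in irradiated mice. Median changes were -0.81 to -0.64 for 10 T cell markers, -0.92 to -0.40 for 7 NK cell markers and -0.93 to -0.23 for 10 neutrophil markers. These medians cover genes that passed the filter on variation. At most 2 genes of each of these lists were called lower at a day, against 16.1% to 26.5% of all genes. Over all detected markers the median of the mean changes was -0.28 for 13 T cell genes, -0.46 for 8 NK cell genes and -0.53 for 12 neutrophil genes, or 0.10, -0.08 and -0.15 with 75th percentile scaling. Erythroid markers moved the other way, called higher in 0, 1, 5, 0 and 6 of 9, against 2.8%, 3.47%, 5.44%, 7.49% and 19.7% of all genes. Their summed levels were 16.1 to 17.3 in controls and 16.9 to 18.0 in irradiated mice. Actb, which did not pass the filter on variation, changed by -0.13, -0.03, 0.18, -0.09 and 0.31.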

How the data were processed

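The authors deposited 56 one-color Agilent scanner files, with spot intensity extracted by Feature Extraction (version 10.7 per the submitters' processing notes, 11.5.1.1 per the file headers), and a table of processed log2 values, used as an alternative. From each file the background-corrected and processed intensity was taken as log2, minus the median of the 43020 non-control spots of the array. Probes flagged as non-uniform, or as not positive and significant against background, on fewer than 25% of arrays were kept (23324, for 18802 genes). Of these, probes that departed at least 1.5-fold from their median on at least 20% of arrays were kept (17100, for 14584 genes). The probe with the highest mean stood for its gene. Groups came from the sample labels. Each day was fitted with limma 3.58.1 in R 4.3.3, 1 term for treatment, and all 10 groups in 1 fit for differences between days; both were tested on simulated data. A call is an unadjusted p under 0.001 with at least 2-fold change, after the methods of the study. Ratios were compared by exact two-sided permutation tests, Benjamini-Hochberg adjusted over 50 or 40 tests. Named pathway genes are those with the lowest and highest mean change in each list, plus the members and genes most correlated with them. Some genes of the lists are not reported here. The members, lists and comparisons were chosen with earlier results of these data known. Replicate numbers did not pair samples: deviations of 28 same-numbered pairs correlated from -0.28 to 0.34, with 8 over 0.1. Alternatives covered scaling, background correction, filters, probe choice, slide blocks, array weights, call rule and left-out arrays. The number of arrays limits the precision. Scanner columns of green-channel intensity carry no count or depth. Promoter sequences came from RefSeq (GRCm38.p6), and probe positions from the array files (mm9).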

Additional observations from a re-analysis of the deposited data

Results flagged for a closer look

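In 6 of 100 groups of members' levels tested, 1 mouse stood apart from the others of its group by Dixon's criterion, which chance gives in about 1 in 20 groups. Nfkb2 read 2.94 in day 25 control replicate 5, where the other controls ran from 3.30 to 3.47. Rela read 5.26 and Bcl3 2.87 in day 7 irradiated replicate 6, where the others ran from 5.96 to 6.20 and from 4.27 to 4.90. Nfkbia read 5.34 in day 9 control replicate 5 against 6.19 to 6.51, and Tnfaip3 2.94 in day 7 control replicate 5 against 3.23 to 3.37. Rel read 1.11 in day 25 irradiated replicate 4, 1 of 3 arrays on which its probe was well above background, against -2.11 to -1.10. The change of Nfkbiz differed between days (limma F test, adjusted p 0.00354), from 1.05 at day 9 to -0.60 at day 30, with a probe well above background on 16 of 56 arrays.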

How the results depend on the processing

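The direction of the members' changes held more widely than the calls. Beside the 6 members called at each day, 1, 3, 2 and 1 were called with 75th percentile scaling at days 4, 7, 9 and 25, with or without the filter on variation, the 2 at day 9 being Nfkbie, lower, and Nfkbiz, higher. Quantile scaling gave 2 at day 4 and 2 at day 25, likewise. Scaling to the median of probes detected on all arrays gave 1 at days 4 and 25. Normexp gave 0 at each day by limma, with an unadjusted p under 0.05 for 14 of 30 changes, and normexp with quantile scaling, chosen after seeing the data as were the settings without the filter, gave 1, 0, 0, 0 and 3. Slide as a fixed block gave 3, 0 and 0 at days 9, 25 and 30. The 5 members called at all 5 days became 0 under each of these scalings and 8 with an adjusted p under 0.05 as the rule. Leaving out 1 array gave 5 to 6, 6 to 7, 5 to 7, 4 to 6 and 5 to 8 members at the 5 days, and 3 to 5 at all 5 days, the 3 without day 25 control replicate 1, control replicate 5 or irradiated replicate 3. With the replicate block 6, 6, 5, 5 and 6 members were called. In 7 of 28 same-numbered pairs the control was the best match of the irradiated array, so the numbers were not taken as pairs. The cause of these shifts was not tested.

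Of the pathway genes, 50, 34, 40, 51 and 48 were called in either direction at the 5 days. With the 75th percentile this was 26, 20, 22 and 28 at days 4 to 25 (23, 18, 23 and 27 without the filter on variation), and with quantile scaling 29, 20 and 26 at days 4, 9 and 25 (28, 22, 19 and 26 at days 4 to 25 without that filter). The median of detected probes gave 30 at days 4 and 25, normexp 0, 0, 5, 0 and 7, normexp with quantile scaling 9, 6, 8, 7 and 19, and the slide block 10, 0 and 5 at days 9, 25 and 30. An adjusted p under 0.05 gave 72, 72 and 75 at days 7, 9 and 30. Leaving out 1 array gave 42 to 51, 28 to 39, 36 to 41, 40 to 56 and 38 to 60.

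The count of members whose change differed between days, 1, was 0 with normexp or slide as a random block and 2 with array weights. That of members whose controls differed between days, 3, was 0 and 1 in those fits and 7 with weights. Of the ratios to Ptprc, 12 passed, and 0 with quantile scaling or normexp, 19 with both, 35 against Cd3e, 37 against Csf3r and 10 to 16 with 1 array left out. Of the pairs of members, 11 passed, 7 with quantile scaling, 0 with normexp, 5 with the authors' processed values and 10 to 13 with 1 array left out.

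Signs turned for the upstream Relb probe (0.65, 0.43, 0.067, 0.73 and 1.24), Nfkbia at day 25 with normexp (0.26), Nfkbiz at day 4 without control replicate 3 (-0.076, where leaving out 1 array gave -0.076 to 0.46), and Nfkbiz at day 7 with the 75th percentile (0.21, also without the filter on variation) or the median of detected probes (0.15). Signal near background limits Rel, Nfkbiz and the irradiated arrays of Nfkb1.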
